A study of Mus musculus with 8 samples.

Results

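The class II and IV histone deacetylases are 7 genes: Hdac4, Hdac5, Hdac7 and Hdac9 of class IIa, Hdac6 and Hdac10 of class IIb, and Hdac11 of class IV. They were taken from whole-genome mouse microarrays by matching the RefSeq accession of each probe to the gene symbols, which gave 10 probes among 55681. All 7 genes had a probe above background and were among the 22694 genes tested. The question was whether the transcripts of these deacetylases were higher when Hdac1 and Hdac2, the class I enzymes, are deleted.

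The mutant group was 4 pools of nephron progenitors with floxed Hdac1 and Hdac2 alleles (HDAC1&2f/f), and the wildtype group was 4 pools with unfloxed alleles (HDAC1&2+/+). Both groups were C57BL/6, were collected at embryonic day 15.5 and carried the Six2CreEGFP transgene, whose Six2 promoter drives Cre and green fluorescent protein in the cap mesenchyme, so Cre was present in the controls too. Cells were sorted by that fluorescence, and each pool was labelled with Cy5 and hybridised on a 2-colour Agilent array against Cy3-labelled RNA of wildtype pool 1. Within each group, Cy5 levels of pools 3 and 4 lay as close as repeated Cy3 measurements of one RNA and were averaged, which left 3 mutant and 3 wildtype samples, and since no source used here says whether pools share animals, p-values measure only the spread between these samples.

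Histone deacetylases remove acetyl groups from lysines of histones and other proteins. Hdac1 and Hdac2 are the catalytic subunits of large nuclear corepressor complexes and can stand in for each other in many tissues. Class IIa enzymes have little activity of their own on acetyl-lysine: they bind MEF2 transcription factors, recruit Hdac3 through corepressors, and leave the nucleus when kinases phosphorylate them and 14-3-3 proteins bind. Hdac6 acts in the cytoplasm on tubulin, cortactin and Hsp90, Hdac10 prefers acetylated polyamines, and Hdac11 is known as a remover of long fatty acyl groups.

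None of the 7 members passed the test between mutant and wildtype cells (limma, adjusted p from 0.646 to 0.948), where 0.0353% of all genes tested were called, 0.0176% as higher and 0.0176% as lower in the mutant. Their log2 differences, mutant minus wildtype, ran from -0.11 for Hdac11 to 0.31 for Hdac6, with a median of 0.16 against 0.0016 over all genes. The mutant mean was above the wildtype mean for 6 members and below it for 1, but with arrays centred on spike-in controls, which moved the median of all genes to -0.17, it was above for 2, Hdac4 and Hdac6. At an unadjusted p under 0.05, 1 member was reached, Hdac6, against 7.23% of all genes in either direction and 4.45% as higher. The 95% interval of each of the 7 differences lay inside a 2-fold change in either direction: the highest upper bound was 1.61-fold for Hdac4 and the lowest lower bound 0.708-fold for Hdac11. This held in each of the 23 other settings tried. Not all of these are separate checks: scaling between arrays leaves the ratios as they are, and the series value table repeats the scanner's processed ratios. Ratios are relative to the bulk of genes on each array, so a shift shared by most genes is not seen in them.

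Hdac4, a class IIa enzyme known for its control of hypertrophy in cartilage and muscle, was read by probe A_51_P417839 (NM_207225). Its log2 ratios of Cy5 over Cy3 were 0.36, -0.38 and -0.25 in mutant pool 1, pool 2 and the mean of pools 3 and 4, against -0.10, -0.41 and -0.37 in the wildtype samples in the same order. Mutant pool 1 was the highest sample, and the other mutant samples lay within the wildtype range, so the groups overlapped. The difference was 0.20 ± 0.20 (SE), with a 95% interval from -0.28 to 0.69 (limma, adjusted p = 0.836). Without mutant pool 1 it was -0.02.

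Hdac5, the close relative of Hdac4 known as a signal-dependent repressor of MEF2, was read by probe A_55_P1983006 (NM_001077696). Its log2 ratios were 0.31, -0.17 and -0.03 in the mutant samples, against -0.05, -0.15 and -0.18 in the wildtype samples. Mutant pool 1 was again the highest sample, mutant pool 2 lay among the wildtype samples, and the groups overlapped. The difference was 0.16 ± 0.14 (limma, adjusted p = 0.820), and 0.03 without mutant pool 1.

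Hdac7, the class IIa enzyme known for its part in endothelial cells and developing thymocytes, was read by probe A_55_P2018457 (NM_001204276). Its log2 ratios were 0.46, 0.24 and 0.34 in the mutant samples, against 0.22, 0.23 and 0.32 in the wildtype samples. Outside mutant pool 1 the same-numbered samples nearly coincided, with pair differences of 0.0036 for pool 2 and 0.014 for pools 3 and 4. The difference was 0.09 ± 0.10, with a 95% interval from -0.15 to 0.32 (limma, adjusted p = 0.848), and 0.03 without mutant pool 1. Hdac7 is abundant in endothelium, and the endothelial markers are given beside it: 11 of 14 had a higher mutant mean, none was called, and their median difference was 0.17. Their part in the Hdac7 value was not tested.

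Hdac9, whose transcription in muscle is known to be driven by MEF2, had 2 probes. Probe A_55_P1970755 (NM_024124) gave log2 ratios of 0.24, -0.04 and 0.02 in the mutant samples, against 0.08, -0.42 and 0.03 in the wildtype samples. The groups overlapped, and wildtype pool 2 lay apart from the other samples. The difference was 0.17 ± 0.16 (limma, adjusted p = 0.827), 0.02 without wildtype pool 2 and 0.09 without mutant pool 1. The other probe, A_55_P2065074 (NM_001271386), was well above background on 0 mutant arrays and 1 wildtype array and was not tested.

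Promoter windows of Hdac5 and Hdac9 are shown because each holds 1 match to a MEF2-like motif, named for the factor that class IIa enzymes bind. The motif searched on both strands was CTA and TAG separated by any 4 bases, which 3.69% of 32851 mouse promoters of 300 bases hold, and it is in capitals. Between CTA and TAG the Hdac5 match has T alone, and the Hdac9 match also has G and C. The other RefSeq window of Hdac9 holds 0 matches. The windows run from 250 bases before the start to 50 after it, at chr11:102230123-102230422 for Hdac5 and chr12:34528840-34529139 for Hdac9, both on the minus strand (GRCm38.p6). A match describes letters of a loose motif and is not by itself a MEF2 site, and no binding was measured here.
Hdac5 promoter: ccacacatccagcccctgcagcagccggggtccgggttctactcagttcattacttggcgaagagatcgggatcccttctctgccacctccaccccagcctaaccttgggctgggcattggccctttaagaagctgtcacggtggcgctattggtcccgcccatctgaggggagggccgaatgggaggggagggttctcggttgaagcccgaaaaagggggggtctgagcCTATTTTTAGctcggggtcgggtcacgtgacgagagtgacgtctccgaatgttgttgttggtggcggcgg
Hdac9 promoter: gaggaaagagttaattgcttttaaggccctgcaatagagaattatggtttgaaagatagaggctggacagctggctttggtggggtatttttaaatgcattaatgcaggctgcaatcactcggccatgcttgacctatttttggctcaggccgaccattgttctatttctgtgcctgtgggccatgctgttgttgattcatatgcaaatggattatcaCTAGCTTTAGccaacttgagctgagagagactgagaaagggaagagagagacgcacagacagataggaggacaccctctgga

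Hdac6, the tubulin deacetylase, was the member with the highest difference. It had 2 probes that carry the same accession (NM_010413). Probe A_55_P2009792 gave log2 ratios of 0.60, 0.24 and 0.32 in the mutant samples, against 0.04, 0.04 and 0.15 in the wildtype samples. Every mutant sample lay above every wildtype sample, a pattern that 8.71% of all genes showed, while 5.95% showed the opposite one. The difference was 0.31 ± 0.12, a 1.24-fold change with a 95% interval from 1.02 to 1.51, which did not pass over all genes (limma, unadjusted p = 0.0357, adjusted p = 0.646). An exact two-sided permutation test gave p = 0.1, the smallest that 3 against 3 samples allow. Any gene whose groups do not overlap gets this value, so it adds nothing to that pattern.

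Probe A_55_P1992655 of Hdac6 gave 0.52, 0.20 and 0.29 in the mutant samples, against -0.12, 0.05 and 0.08 in the wildtype samples. The groups again did not overlap, as for 8.05% of all probes, and the difference was 0.33 ± 0.12 (limma over probes, adjusted p = 0.688, where 0.0263% of all probes were called). The probes thus gave the same direction and nearly the same size, 0.31 and 0.33, but they read the same RNA on the same arrays and are no replicates of each other. Paired by pool number, Hdac6 was higher in 3 of 3 pairs, by 0.56, 0.20 and 0.17 at the first probe. That count follows from the groups not overlapping and is no further result, and 23% of all genes were higher in all 3. When pool numbers entered limma as a replicate block the adjusted p was 0.355, and without mutant pool 1 the difference was 0.20. A difference at least as high as that of Hdac6 was measured for 5.51% of all genes.

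The promoter window of Hdac6 is shown because this member had the highest difference. It holds the GC box GGGCGG, the motif known to bind Sp1-family factors, 5 times (both strands searched, in capitals), and 35.7% of the same 32851 promoters hold it at least once. The window lies at chrX:7947840-7948139 on the minus strand (GRCm38.p6) and is 62% G and C, against a median of 52.7% over all promoters. The Hdac4 window also holds 5 such boxes, and nothing about binding follows from either.
Hdac6 promoter: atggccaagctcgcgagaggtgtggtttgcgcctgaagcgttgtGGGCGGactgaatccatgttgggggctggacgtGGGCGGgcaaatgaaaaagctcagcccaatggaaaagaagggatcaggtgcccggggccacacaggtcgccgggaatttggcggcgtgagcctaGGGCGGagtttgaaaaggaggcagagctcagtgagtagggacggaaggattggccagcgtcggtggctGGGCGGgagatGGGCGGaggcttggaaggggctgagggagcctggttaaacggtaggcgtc

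Hdac10, the polyamine deacetylase, had 2 probes of one accession (NM_199198). Probe A_51_P502764 gave log2 ratios of 0.15, 0.09 and 0.10 in the mutant samples, against 0.10, 0.03 and 0.11 in the wildtype samples. The groups overlapped, and the difference was 0.03 ± 0.09, with a 95% interval from -0.18 to 0.23 (limma, adjusted p = 0.948). Probe A_55_P1971804 gave 0.25, -0.10 and 0.03 in the mutant samples, against -0.09, -0.14 and -0.03 in the wildtype samples. There too the groups overlapped, with mutant pool 1 the highest sample, and the difference was 0.14 ± 0.12 (limma over probes, adjusted p = 0.873). Without mutant pool 1 the differences were 0.01 and 0.05.

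Hdac11, the sole class IV enzyme, was read by probe A_51_P213334 (NM_144919). Its log2 ratios were -0.38, 0.10 and 0.05 in the mutant samples, against 0.19, -0.16 and 0.08 in the wildtype samples. Mutant pool 1 was here the lowest sample, and the other mutant samples lay within the wildtype range. The difference was -0.11 ± 0.16, with a 95% interval from -0.50 to 0.27 (limma, adjusted p = 0.874), and it turned to 0.04 without mutant pool 1. Its Cy5 signal was 3.20 to 5.99 times the local background, so this probe was dim.

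**Figure D1:**
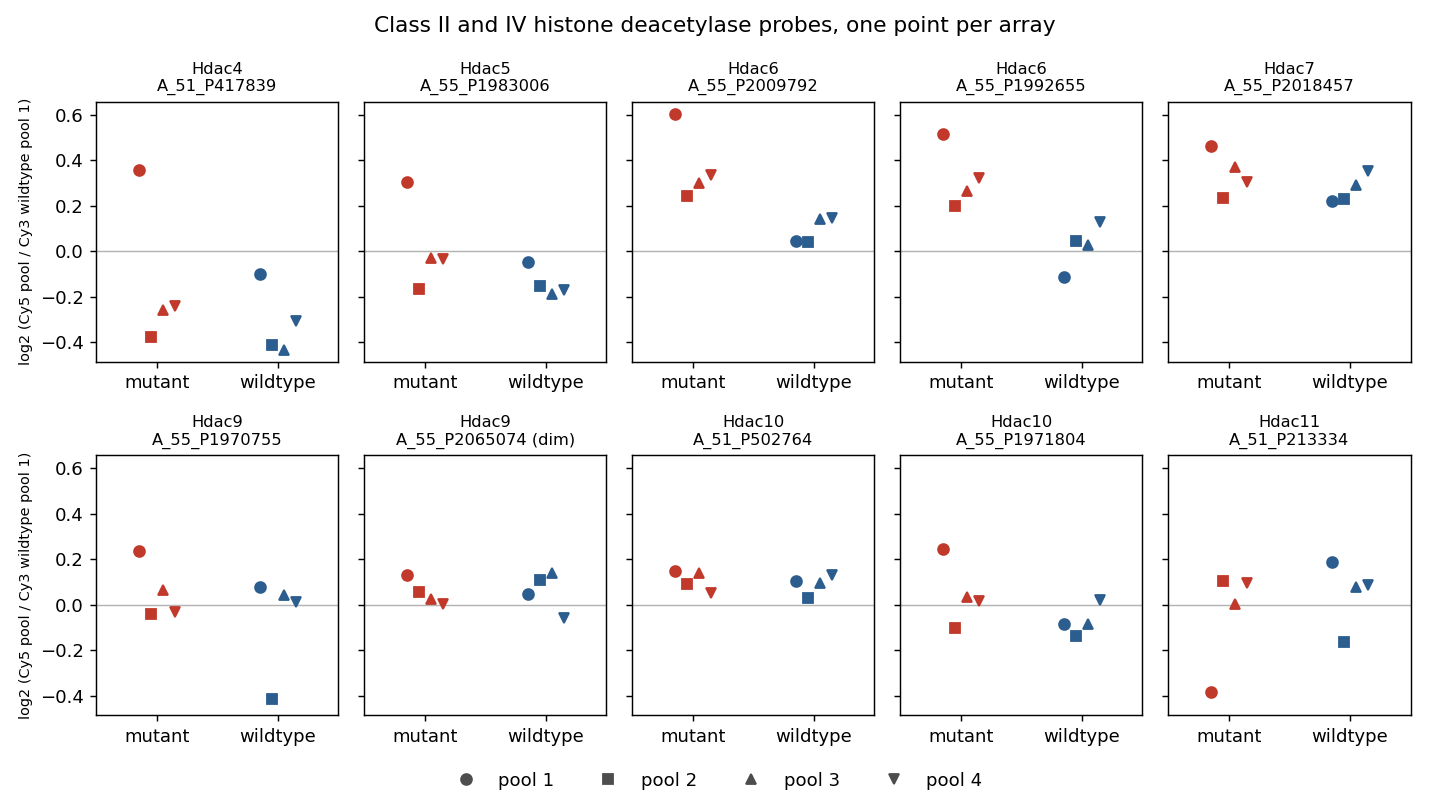
Log2 ratio of Cy5 (each pool) over Cy3 (wildtype pool 1 RNA) for the 10 probes, 1 point per array, mutant arrays in red on the left and wildtype arrays in blue on the right, with the pool number given by the marker. At both Hdac6 probes all mutant arrays lie above all wildtype arrays, while elsewhere the groups overlap and mutant pool 1 (circle) is often at the edge. The probe marked dim was well above background on 1 array.

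Mutant pool 1 stood apart at these genes. It was the highest of the 6 samples for 6 of 7 members, where it was the highest for 30.6% of all genes, and it was the highest or the lowest for 7 of 7, against 62% of all genes. The median SD of a member was 0.191 in the mutant samples and 0.0694 in the wildtype samples, and over all genes it was 0.17 in the mutant samples and 0.116 in the wildtype samples. On that array different probes of one gene also scattered most, with a median SD of 0.245, against 0.0826 to 0.142 on the other 7 arrays. Without mutant pool 1 the members' median difference was 0.03, with a range from -0.02 for Hdac4 to 0.20 for Hdac6. That comparison keeps wildtype pool 1. With both pool 1 samples left out and pool number as a block, the members' median was 0.08, with a range from 0.0086 to 0.19. This fit was chosen after the data were seen, and no member was called in it. Pool quality or composition as a part of the place of mutant pool 1 was not tested.

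**Figure D2:**
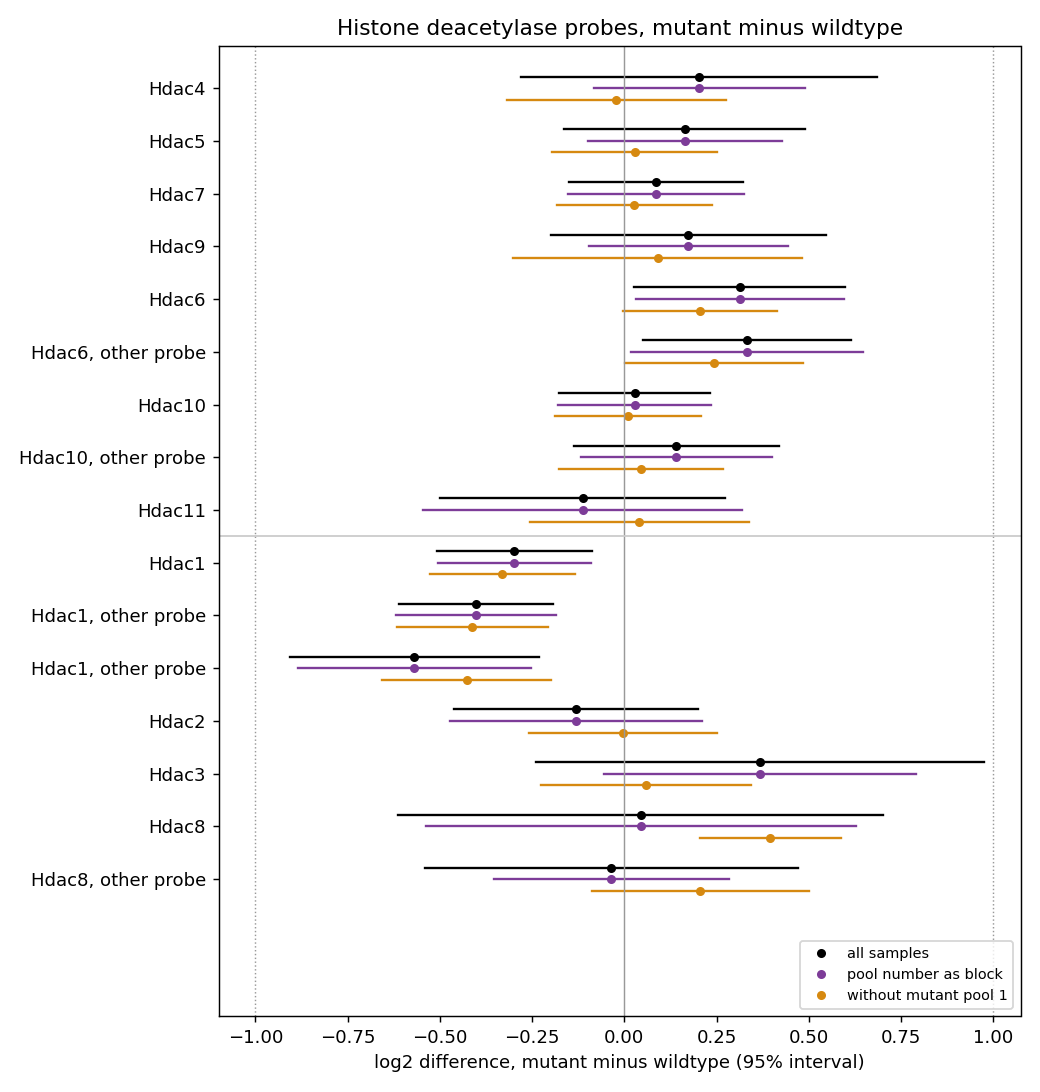
Log2 difference, mutant minus wildtype, with its 95% interval from limma for each probe that passed the filter, from all samples (black), with the pool number as a block (purple) and without mutant pool 1 (orange). Dotted lines mark a 2-fold change, class I genes stand below the grey line, and the Hdac4 value moves to -0.02 and the Hdac6 value to 0.20 when mutant pool 1 is left out.

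The Cy3 channel held the same RNA on every array, so differences in it are between arrays and not between pools. After scaling between arrays, the Cy3 log2 level on mutant arrays minus that on wildtype arrays was -0.05 and -0.07 at the Hdac6 probes, 0.04 for Hdac4, 0.09 for Hdac5 and -0.01 for Hdac7. At the Hdac10 probes it was 0.12 and 0.15. For Hdac9 it was 0.43 and for Hdac11 0.53, with an SD over the 8 arrays of 0.419 and 0.472. These last 2 values rested on the wildtype pool 2 array, on which 48625 probes were well above background in Cy5 against 28148 to 33981 on the other arrays. Without that array the Cy3 difference was 0.05 for Hdac9, 0.11 for Hdac11, and 0.05 and 0.04 at the Hdac10 probes. The mutant arrays filled one row of the slide and the wildtype arrays the other, so the 2 cannot be told apart.

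**Figure D3:**
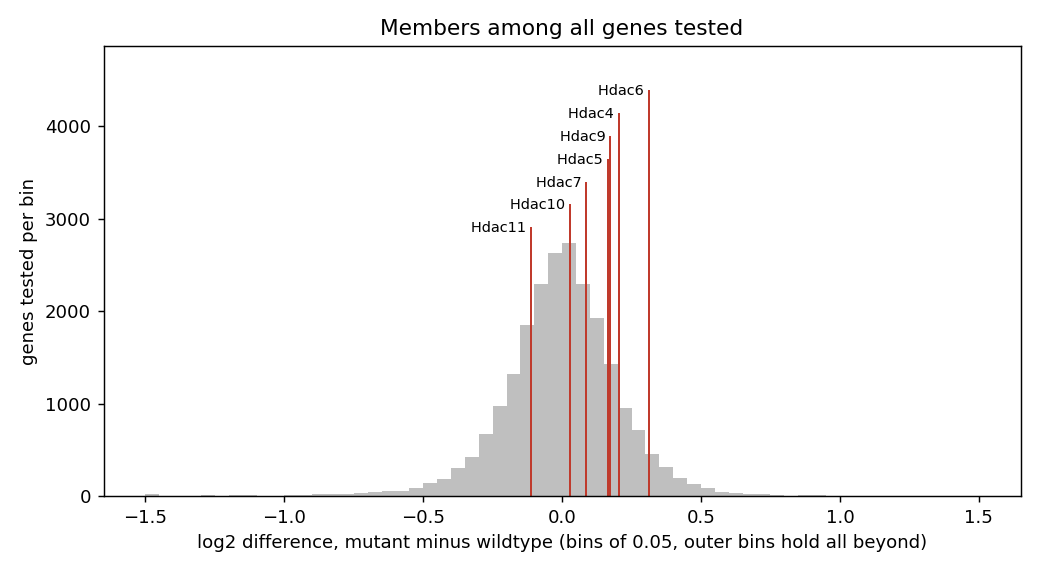
Number of genes tested per bin of log2 difference, mutant minus wildtype (grey bars), with the 7 members marked by red lines. Hdac11 lies left of 0 at -0.11, the other members lie right of it, and Hdac6 at 0.31 is the farthest out, with 5.51% of all genes at or beyond it.

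The deleted genes themselves did not pass the test. Hdac1 probe A_55_P1970775 gave log2 ratios of -0.07, -0.14 and -0.20 in the mutant samples, against 0.20, 0.14 and 0.15 in the wildtype samples. All 3 Hdac1 probes had every mutant sample below every wildtype sample, as 5.6% of all probes did, with differences of -0.30, -0.40 and -0.57 that were not called (limma over probes, adjusted p of 0.580, 0.376 and 0.425). Hdac2 gave -0.54, -0.04 and -0.28 in the mutant samples, against -0.07, -0.18 and -0.21 in the wildtype samples, which overlapped (difference -0.13 ± 0.14, and -0.0043 without mutant pool 1). No source used here places the probes inside or outside the floxed exons, so the arrays check the labels in part. Of the class I genes that were not deleted, Hdac3 differed by 0.37 ± 0.26 (0.06 without mutant pool 1) and Hdac8 by 0.04 ± 0.28 (0.40 without it), and neither was called.

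Nephron progenitor identity was checked on 14 markers. All 14 were measured, and 13 were well above background on all 8 arrays. Cited1, a transcriptional coregulator of the uncommitted progenitor, fell (log2 difference -2.72 ± 0.13, limma, adjusted p = 0.00283), and the list's median difference was -0.23. The mutant mean was higher for 4 of the 14. Every mutant sample lay below every wildtype sample for 4 markers, Cited1 among them, and above for 1. Over all genes these patterns made up 5.95% and 8.71%. Summed Cy5 levels of these markers on a linear scale were 117176 to 129901 in the mutant samples, against 163182 to 164671 in the wildtype samples. Cited1 made up most of that gap: over the other 13 markers the sums were 111701 to 123968 in the mutant samples, against 125051 to 131605 in the wildtype samples. Markers of other cell types differed to unequal extents: the median difference was -0.96 over 14 proximal tubule markers, 0.24 over 14 stroma markers, 0.17 over 14 endothelial markers and 0.10 over 14 ureteric bud markers. It was 0.01 over 13 leukocyte markers, -0.01 over 13 neuronal markers and -0.25 over the 6 of 14 skeletal muscle markers that were measured. These medians kept their sign without mutant pool 1 except that of the leukocyte markers (-0.06), and the ureteric bud and neuronal medians were then 0.18 and -0.06. The muscle markers Myod1, Myf5, Mylpf and Ckm were well above background on 0 arrays.

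Summed levels of the proximal tubule markers were 5409 to 16342 in the mutant samples, against 9424 to 37447 in the wildtype samples, and those of the stroma markers were 263674 to 353143 in the mutant samples, against 254819 to 297100 in the wildtype samples. Endothelial sums were 81833 to 112813 in the mutant samples, against 72663 to 86150 in the wildtype samples. Outside the progenitor list no marker was called without the replicate block, and with it the tubule gene Pdzk1 fell (limma, adjusted p = 0.0317). The part of these cell types in the members' values was not tested, and fewer cells of a type cannot be told apart from less RNA per cell in pooled material.

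The proteins that work with class IIa enzymes gave no called gene. Of 16 corepressors and transcription factors, 15 were measured, 0 were called in either direction and the median difference was -0.01. The corepressor Ctbp1 differed by 0.01 ± 0.09. Zbtb16, a zinc finger repressor that recruits deacetylases, had the largest difference of the list, 0.42 ± 0.17 (limma, adjusted p = 0.667), and 0.25 without mutant pool 1. Its mutant samples all lay above the wildtype samples, as for 8.71% of all genes, while 5.95% showed the opposite pattern. In this list 2 genes lay wholly above and 3 wholly below. Mef2a, Mef2c and Mef2d, the factors that class IIa enzymes bind, differed by 0.13, -0.12 and 0.00, and all overlapped. These were 0.14, 0.02 and 0.26 when mutant pool 1 was left out, and the list's median was then 0.02.

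All 29 kinases and 14-3-3 or export proteins were measured, 0 were called, and the median difference was 0.08. Camkk1, which activates calcium/calmodulin-dependent kinases that phosphorylate class IIa enzymes, had the largest difference, 0.41 ± 0.10 (limma, adjusted p = 0.328). It was 0.41 without mutant pool 1 too. Of the 29 genes 5 lay wholly above, Camkk1 among them, and 2 wholly below, patterns of 8.71% and 5.95% of all genes. The 14-3-3 genes Ywhae and Ywhaq differed by -0.32 ± 0.15 and -0.09 ± 0.13, and by -0.16 and 0.04 without mutant pool 1.

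Genes known to respond to MEF2 were listed as a readout of class IIa repression. Of 26, 19 were measured and 0 were called, with a median difference of 0.08 and a range from -0.48 to 0.70. Myh7, a slow muscle myosin, had the largest difference, 0.70 ± 0.18 (limma, adjusted p = 0.370), with 0.52 left without mutant pool 1. Its mutant samples all lay above the wildtype samples, a pattern of 8.71% of all genes, while 5.95% showed the opposite one. In this list 2 genes lay wholly above and 2 wholly below. Jun and Tgfb3, the brightest probes of the list, differed by 0.17 ± 0.23 and 0.29 ± 0.15. Jun turned to -0.10 and Tgfb3 was 0.31 without mutant pool 1, and the list's median was 0.0012.

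For Hdac6, all 22 substrates and partners were measured and 0 were called, with a median difference of 0.07. Among them 4 genes lay wholly above and 0 wholly below, patterns of 8.71% and 5.95% of all genes. The alpha-tubulin Tuba1b, whose protein Hdac6 deacetylates, differed by 0.00 ± 0.10, the chaperone Hsp90ab1 by -0.08 ± 0.09 and the microtubule-binding protein Mapt by -0.42 ± 0.33. Hsp90ab1 was -0.12, Mapt -0.58 and the list's median 0.02 without mutant pool 1. Acetylation of these proteins is not read by an RNA array. Of 15 polyamine genes 13 were measured and 0 were called, with a median of 0.19, and 2 lay wholly above and 0 wholly below. In that list the antizymes Oaz1 and Oaz2 differed by -0.06 ± 0.10 and 0.21 ± 0.16, and the oxidase Paox by 0.26 ± 0.19. Without mutant pool 1 Oaz1 was 0.0044, Oaz2 0.05 and Paox 0.03, and the list's median was 0.05. The 7 sirtuins, the NAD-dependent class III deacetylases, had a median of 0.02, from -0.12 ± 0.13 for Sirt2 to 0.11 ± 0.13 for Sirt7, with 0 called. Among the sirtuins 0 lay wholly above and 0 wholly below. When that pool was left out Sirt2 was -0.0019, Sirt7 0.20 and the median -0.04.

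**Figure D4:**
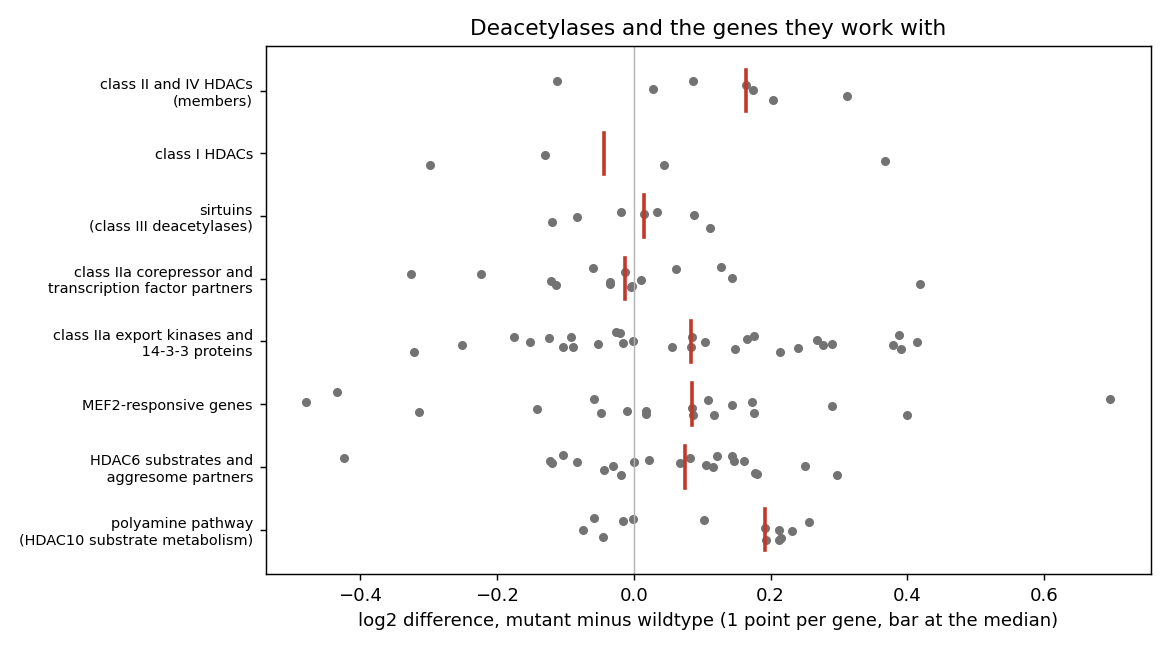
Log2 difference, mutant minus wildtype, of each measured gene (grey points) in the members' list and in 7 related lists, with the list's median as a red bar. The medians lie between -0.04 for the class I genes and 0.19 for the polyamine genes, next to 0.16 for the members, and no point was called.

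Across the 6 samples the members' ratios shared patterns, which are given as a description, since all samples share the arrays and the Cy3 RNA. Pearson's r was 0.98 between Hdac4 and Hdac5, 0.98 between Hdac9 and Hdac10 and 0.90 between Hdac6 and Hdac7, while Hdac11 correlated with the other members at -0.72 to -0.05. Among 14811 named genes, the one most like each member was Retreg3 for Hdac4 (r = 0.998), Zmiz2 for Hdac5 (0.998), Oas2 for Hdac6 (0.999), Eif4g3 for Hdac7 (0.993), Atl2 for Hdac9 (0.997), Dhh for Hdac10 (0.990) and Dusp16 for Hdac11 (0.992). With 6 samples such values are common: between 2.23% and 8.05% of those genes exceeded 0.9 for each member.

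Other annotated genes overlap the spans of some members, counted without regard to strand. Hdac7 overlaps the protein-coding gene Slc48a1 on chromosome 15, Hdac5 overlaps Mir8101 on chromosome 11, and noncoding RNA genes overlap Hdac4, Hdac7, Hdac9 and Hdac10 in RefSeq. No source used here gives the positions of the probes within the transcripts, so whether any probe also reads an overlapping gene was not tested.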

How the data were processed

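The deposited scanner files hold spot and background intensity values (median signals) of each dye and processed signals made by Agilent Feature Extraction 10.7.3.1, as the submitters' processing notes and, per the file headers, the files themselves say. The deposited series value table holds log10 ratios of Cy5 over Cy3, which matched the scanner log ratios to within 0.00498 on all 8 arrays. The well-above-background and outlier flags used are other deposited columns of the scanner files.

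Median signals were used, since mean signals were not analysed here. Background was corrected by normexp with an offset of 50 (R 4.3.3, limma 3.58.1), and signals were normalized by loess within arrays and turned to log2 ratios. Probes were kept when 3 or more of the 4 arrays of a group had Cy5 well above background (30364 of 55681), and the brightest probe of a gene represented it (22694 genes). Genes were named from RefSeq accessions without version (GRCm38.p6). Promoter windows came from RefSeq tables of that build for 6 members. Array number limits the precision.

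Cy5 levels of pools 3 and 4 differed by a median absolute deviation of 0.0566 and 0.0600, against 0.119 to 0.332 for other pairs within a group and 0.0450 to 0.132 in Cy3. Same-numbered samples deviated together (r = 0.496, 0.543 and 0.527 over 22360 genes), so pool numbers were taken as pairs, from the data. Groups were compared with limma (lmFit, eBayes, two-sided, Benjamini-Hochberg over all genes, threshold 0.05). Members of the family and all lists were chosen with earlier results of these data known. Named genes were the members, class I genes, called list genes, the 2 brightest and the 1 with the largest difference of each list, and the gene most like each member. One gene that this rule names is not reported here. Mef2a, Mef2c and Mef2d were named beside that rule after their values were seen. Alternatives covered normalization, background, filter, probe choice, block, separate arrays, variance model, value table and left-out samples. The script was tested on simulated data.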

Additional observations from a re-analysis of the deposited data

How the results depend on the processing

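No member passed the threshold in any of 205 combinations of member probe and setting, and 8 turned in sign. Of the 23 settings 1, the block with both pool 1 samples left out, was chosen after seeing the data. Scaling between arrays repeats the main ratios and the value table repeats the processed signals, so these 205 are not all separate checks. When pool numbers formed a replicate block, no member was called and the number of all genes called was 34 in place of 8. Centring on the spike-in controls moved the median of all genes to -0.17, and there Hdac5 was -0.010, Hdac7 -0.088, Hdac9 -0.00050, Hdac10 -0.15 with its other probe -0.033, Hdac8 -0.13, and 5 genes were called. This centring subtracts 1 value per array, so it moves all genes alike. Where these genes lie relative to the median of all genes could therefore not change from the main fit. With the 8 arrays as separate samples 257 genes were called, Hdac8 probe A_51_P481191 was 0.012 and Hdac1 probe A_66_P128384 passed (-0.41, limma, adjusted p = 0.0265). That setting counts pools 3 and 4 as separate samples, though they lay as close as repeated measurements of one RNA. Its p-values and counts are therefore not comparable with those of the main fit. A trended, robust variance gave 5 genes. Leaving out samples gave ranges of -0.021 to 0.35 for Hdac4, -0.21 to 0.041 for Hdac11 (0.12 in the block without pool 1, where Hdac2 was 0.036), -0.14 to 0.40 for Hdac8 and -0.18 to 0.21 for its other probe. The number of all genes called ranged from 0 to 10 over these, with 4 without wildtype pool 1, 4 without wildtype pool 2, 3 and 1 without the averaged mutant or wildtype sample of pools 3 and 4, and 0 in the block without pool 1, where the number of genes with an unadjusted p under the threshold was 3176. The cause of these changes was not tested. Dim probes limit Hdac9 (6.27 to 7.83 times local background) and Hdac11.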
